A study of Bos taurus with 8 samples.

Results

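Fibro-adipogenic progenitors (FAPs) of bovine muscle were split by MFAP5, and the cells with MFAP5 transcripts were compared with those without. Cells came from the semitendinosus muscle of 10 Belgian Blue cattle, were freed with collagenase and sequenced unsorted and uncultured as a single pooled library (Timepoint 1, Muscle). Animals 2, 4, 5, 7 and 10 were calves and animals 1, 3, 6, 8 and 9 were adults. Animals 6, 8 and 10 were male. No agent or genetic change was applied to any animal. FAPs were taken from the authors' deposited cell types. Of 4395 muscle cells that had passed the authors' quality control, among 36129 cells of all 5 timepoints, 1231 were FAPs and 1190 of these held 2000 or more unique molecular identifiers (UMIs, each standing for a transcript captured once). FAPs with 2 or more MFAP5 UMIs formed the MFAP5-positive class of 1090 cells, and those with 0 formed the MFAP5-negative class of 45 cells. The 55 FAPs with 1 MFAP5 UMI belonged to neither class.

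MFAP5 encodes a small glycoprotein of the extracellular matrix that binds fibrillin microfibrils, the scaffolds on which elastic fibers are laid down. FAPs are the mesenchymal cells between muscle fibers that can become fibroblasts or adipocytes and that support satellite cells after injury. In many tissues, fibroblasts of the loose connective tissue around vessels and fascia (adventitial fibroblasts, with PI16, CD55 and CLEC3B) are told apart from fibroblasts inside the organ (parenchymal fibroblasts, with COL15A1 and CXCL14), and MFAP5 belongs to the adventitial side of that division.

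The cells were chosen by their MFAP5 UMIs, so the values of MFAP5 itself are a description. MFAP5-positive FAPs held a median of 22 and at most 173 MFAP5 UMIs. At the edge of the rule stood the 55 cells with 1 UMI, with a median depth of 4278 UMIs per cell, and 27 cells with exactly 2 UMIs, with a median depth of 5496. The share of FAPs with 2 or more MFAP5 UMIs was 91.6%, against 1.74% of vascular endothelial cells (exact 95% interval 0.956 to 2.91%) and 1% of smooth muscle and mesenchymal cells (SMMCs), which should lack the gene. The median depths of these 3 types were 6177, 3579 and 3412 UMIs per cell. Intervals on counts cover counting error only. Tenocytes were the other muscle cell type with MFAP5 in most cells, 15 of 21. The share was 4.36% of satellite cells, 2.73% of lymphocytes, 1.27% of lymphatic endothelial cells and 1.01% of monocytes and macrophages. It was 5 of 29 myocytes, 5 of 13 neutrophils and 1 of 8 glial cells. Among FAPs, positive cells were 80.6% of the cells in the lowest animal, 92.7% in the median animal and 93.9% in the highest. They made up 89.4% ± 5.4 (SD, n = 5) of FAPs in calves and 92.6% ± 1.9 (n = 5) in adults, a difference of -3.17 percentage points. Among cells thinned to 2000 UMIs the shares were 78.7% and 86.6%, a difference of -7.84 percentage points, and with 1 or more UMIs as the rule the difference was -0.049 percentage points. These shares are made of the MFAP5 UMIs and are given without a test.

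MFAP5-negative FAPs were few and shallow. Animal 4 had 10 of them, animal 5 had 9, animals 1, 2 and 6 had 5 each, animals 3, 8 and 10 had 3 each, animal 7 had 2 and animal 9 had none. Animal 9 therefore dropped out of every paired comparison, which rested on 45 negative and 1038 positive cells of 9 animals. Per animal, the summed negative cells held 7839 to 45472 UMIs and the summed positive cells 251375 to 2135738, so the negative sums were coarse. Levels of single genes are given in CPM (counts scaled to a common total of the genes tested, with TMM factors), a scale on which 1 UMI in a negative sum was worth between 28.2 and 126 CPM. Summed marker lists and levels over MFAP5 classes are in CPM of all UMIs without these factors. The median negative cell of an animal held 4153 ± 1150 UMIs (SD, n = 9 animals) and the median positive cell 6160 ± 813, with the positive class deeper in 9 of 9 animals (exact sign-flip test, p = 0.0039, the smallest this design allows). Genes per cell differed in the same way, with 1654 ± 270.0 in the negative and 2142 ± 160.3 in the positive class (exact p = 0.0039). Deeper cells reach 2 MFAP5 UMIs more easily, so the rule itself favors this direction in both measures. The mitochondrial share was 3.48% ± 1.46 against 2.67% ± 0.29, a difference not past the threshold (exact p = 0.117). Of the 1190 FAP barcodes, 10 also occurred in a library of another timepoint.

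**Figure D1:**
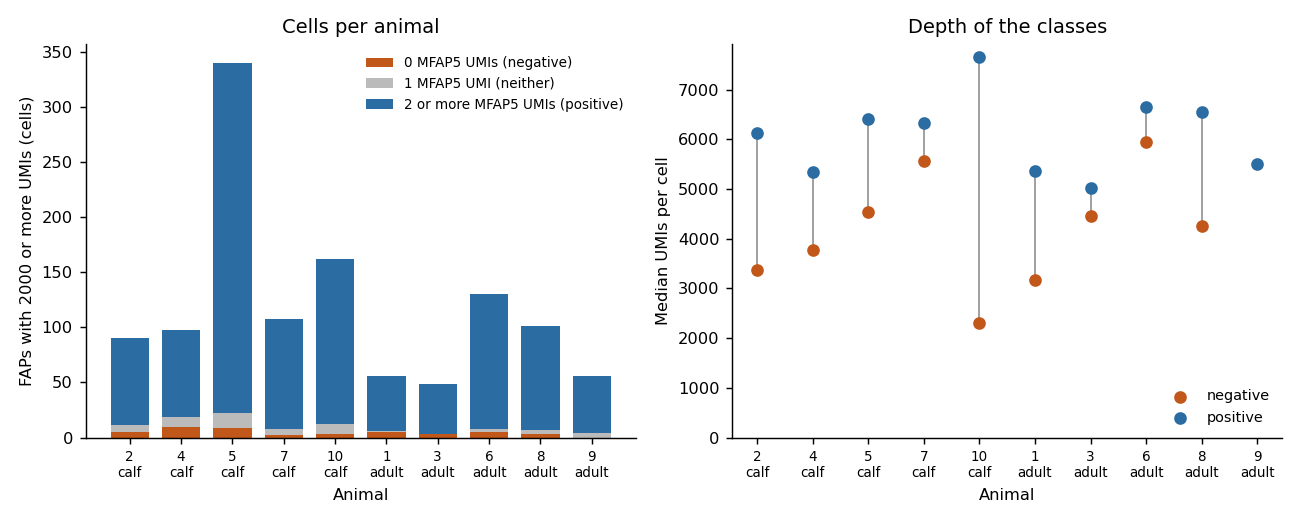
Left, cells per animal by MFAP5 class (stacked bars; animal 9 has no negative cell). Right, median UMIs per cell of the negative (orange) and positive (blue) class, joined within each animal; the positive class is deeper in 9 of 9 animals.

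Both classes carried the genes that define FAPs. PDGFRA, a growth factor receptor that marks FAPs, had a UMI in 37 of the 45 negative cells and DCN (decorin) in 43 of them. In cells thinned to 2000 UMIs the shares with a UMI were 68.9% and 95.6% of negative FAPs, against 1.62% and 9.59% of vascular endothelial cells, which should lack both genes (median depths before thinning 3701 and 3579 UMIs). The summed level of 8 FAP markers was 36096 CPM in the negative and 51439 CPM in the positive class on average and was higher in the positive class in 9 of 9 animals (exact sign-flip test, p = 0.0039, adjusted p = 0.0156 over the lists tested). The negative cells carried the FAP markers, at a lower total. Of the FAP markers 4 of 8 were higher in positive cells at the level of single genes, where 3.65% of all genes tested were higher, COL3A1, GSN, DPT and SERPINF1, and none was lower. In the fits that thinned or matched cells or sums, 1 to 3 of the 8 passed, and SERPINF1 passed in none of them. GSN passed in all of them but the one at equal summed depth (adjusted p = 0.0953). PDGFRA itself lay between 324 and 1804 CPM with a median of 918 in negative cells and between 729 and 1629 CPM with a median of 1002 in positive cells, and did not pass the test (adjusted p = 0.835). Markers of vascular endothelium summed to 103 CPM in negative and 83.3 CPM in positive cells on average and did not pass the test. Those of satellite cells, lymphatic endothelium, mural cells, macrophages, lymphocytes, neutrophils, glia and red cells did not pass either. The lymphatic list averaged 79.8 CPM in negative and 13.9 CPM in positive cells, and the satellite cell list 47.8 and 2.90 CPM. Mural, lymphocyte, neutrophil and red cell lists were also higher on average in negative cells, and macrophage and glial lists lower. In negative cells single animals reached 383 CPM in the vascular, 462 CPM in the lymphatic and 430.3 CPM in the satellite cell list. The satellite cell list had 6 UMIs in the negative class, all in 1 cell. At 0 in all negative cells were 4 of 5 satellite cell markers, with PAX7 and MYF5 among them, 4 of 8 macrophage markers, with CD163 among them, and 4 of 5 glial markers, with SOX10 among them. In pooled positive cells the satellite cell list stood at 2.92 CPM and the glial list at 7.64 CPM. At such levels the 192418 UMIs of the negative class would hold few UMIs of these lists or none, so the zeros of these 2 lists decide nothing. The other macrophage markers had 14 UMIs in 12 negative cells and the remaining glial marker had 1 UMI. Muscle fiber transcripts were higher in positive cells, 1502 against 1146 CPM (9 of 9 animals, exact test, adjusted p = 0.0156), and the part of these transcripts in the results was not tested. With every cell of 2 or more UMIs from other lineages left out (16 of 45 negative and 537 of 1090 positive cells), 25 genes were higher and 3 lower, and of the genes called with all cells 50 and 8 could be tested, all with their sign, of which 22 and 3 passed. The summed tenocyte list was also higher in positive cells, 538 against 35.7 CPM (9 of 9 animals, exact test, adjusted p = 0.0156). It had 7 UMIs in the negative class, all from THBS4, with TNMD, SCX, MKX, COMP and CILP2 at 0 there. In the positive class it had 3046 UMIs. THBS4 was the single tenocyte marker with enough UMIs to test, so the sum is no result about tenocyte markers as a group. The part of tenocyte transcripts in the results was not tested.

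The main question was which other genes separated MFAP5-positive from MFAP5-negative FAPs of the same animal. Of 2138 genes with enough UMIs to test, 78 were higher in the positive class (3.65%) and 22 were lower (1.03%) at an adjusted p below 0.05, or 100 in all (4.68%). With an absolute log2 fold change (log2FC) above 1 as a further demand, 62 were higher (2.9%) and 19 lower (0.889%). The median log2FC over all genes tested was 0.09. Of the higher genes, 49 were higher in every one of the 9 animals, as were 3.32% of all genes tested, and of the lower genes, 4 were lower in every animal, as were 0.327% of all genes tested. The plot of log2FC against mean level shows both groups against all genes tested.

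**Figure D2:**
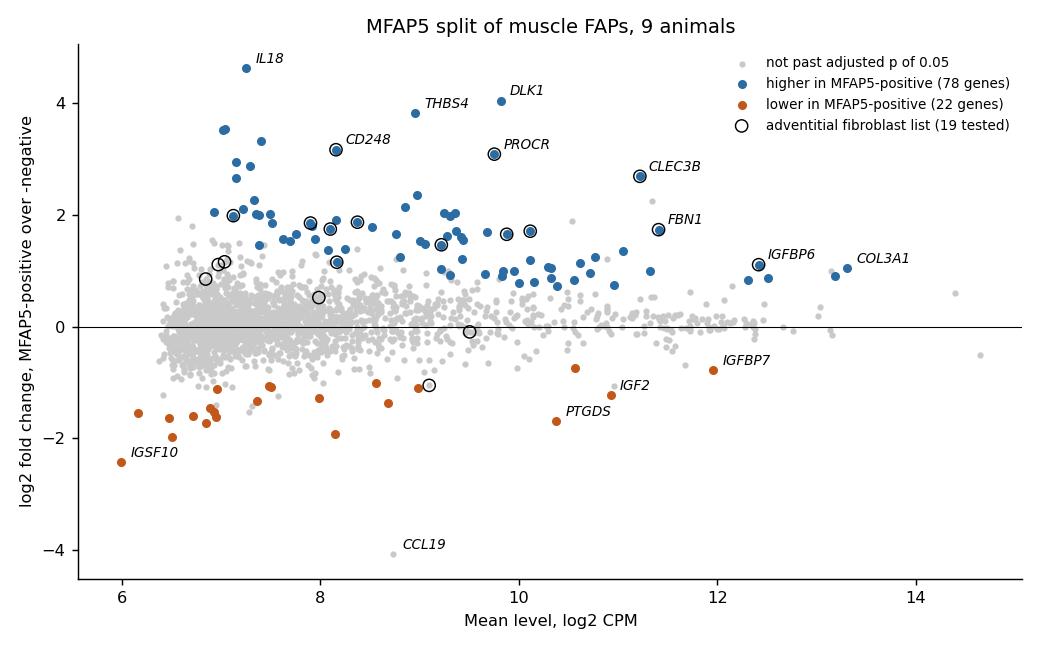
Each point is a gene tested in the paired comparison of 9 animals, by its mean level (log2 CPM) and its log2FC in MFAP5-positive over MFAP5-negative FAPs. The 78 higher genes are blue and the 22 lower genes orange; black rings mark the 19 tested genes of the adventitial list, 13 of them blue.

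DLK1, a membrane protein of the Notch ligand family that holds back adipocyte formation, lay between 0 and 306 CPM in negative cells, with a median of 0 and 5 of 9 animals at 0, and between 538 and 2332 CPM in positive cells with a median of 1096. The classes did not overlap, as was the case for 19 of the 2138 genes in this direction (0.889%), and the log2FC was 4.04 (SE 0.40, adjusted p = 4.97e-11). DLK1 was testable through its level in positive cells, so this difference is a description. THBS4, a matricellular thrombospondin rich in tendon, ranged from 0 to 162 CPM in negative and from 296 to 1150 CPM in positive cells, with medians of 0 and 671 (log2FC 3.82, SE 0.45, adjusted p = 2.2e-09). This too was a separation without overlap. THBS4 had 7 UMIs in the negative class and was testable through its level in positive cells, so its difference is also a description. THBS4 did not pass when classes were set after thinning with all counts kept (2.24, adjusted p = 0.101), but did in the same split of animals with at least 10 cells per class (3.02, adjusted p = 0.000749). DLK1 did not pass in the latter split.

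Among the receptors and surface proteins, PROCR (the endothelial protein C receptor) lay between 0 and 457 CPM in negative cells with a median of 113. In positive cells PROCR lay between 302 and 2635 CPM with a median of 998 (log2FC 3.09, SE 0.34, adjusted p = 3.37e-10). The ranges overlapped, but PROCR was higher in positive cells of 9 of 9 animals. CD248 (endosialin, a glycoprotein of mesenchymal cells) ranged from 0 to 207 CPM in negative and from 179 to 488 CPM in positive cells, with medians of 0 and 407 (log2FC 3.17, SE 0.51, adjusted p = 9.82e-06). Like DLK1 and THBS4, CD248 was testable through its positive sums, so its difference is a description. PROCR and CD248 lost their calls when classes were set after thinning with at least 10 cells per class. RET, the receptor kinase of the GDNF family, passed the filter on low counts through its positive sums and had 3 UMIs in all negative cells and 878 in all positive cells, a ratio per total UMIs of 8.21 (exact 95% interval 2.8 to 39.9).

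CSF1, the growth factor of macrophages, lay between 0 and 84.6 CPM in negative and between 133 and 224 CPM in positive cells, without overlap (log2FC 2.87, SE 0.59, adjusted p = 0.000693). It had 4 UMIs in the negative sums, 7 of 9 of which were at 0, and was tested through its level in positive cells, so the difference is a description. The CSF1 call was lost when classes were set after thinning (0.82, adjusted p = 0.077), also with at least 10 cells per class (0.85, adjusted p = 0.135). PGF, a growth factor of the VEGF family, had a log2FC of 2.27 (SE 0.57, adjusted p = 0.00642). In negative cells PGF reached 167 CPM in animal 4 and at most 76.2 CPM in the others. It too was testable through its level in positive cells, so its difference is a description. Some genes passed the filter on low counts through the positive class alone, and their ratios are given as descriptions. IL18, a cytokine of the IL-1 family, had 1 UMI in the negative class and 1068 in the positive class, a ratio with an exact 95% interval of 5.37 to 1185. The enzyme PTGS1 (cyclooxygenase 1) and the matrix protein FNDC1 also rested on few negative UMIs, 2 and 3. Their ratios were 11.4 (3.15 to 94.5) and 10.5 (3.58 to 50.9).

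**Figure D3:**
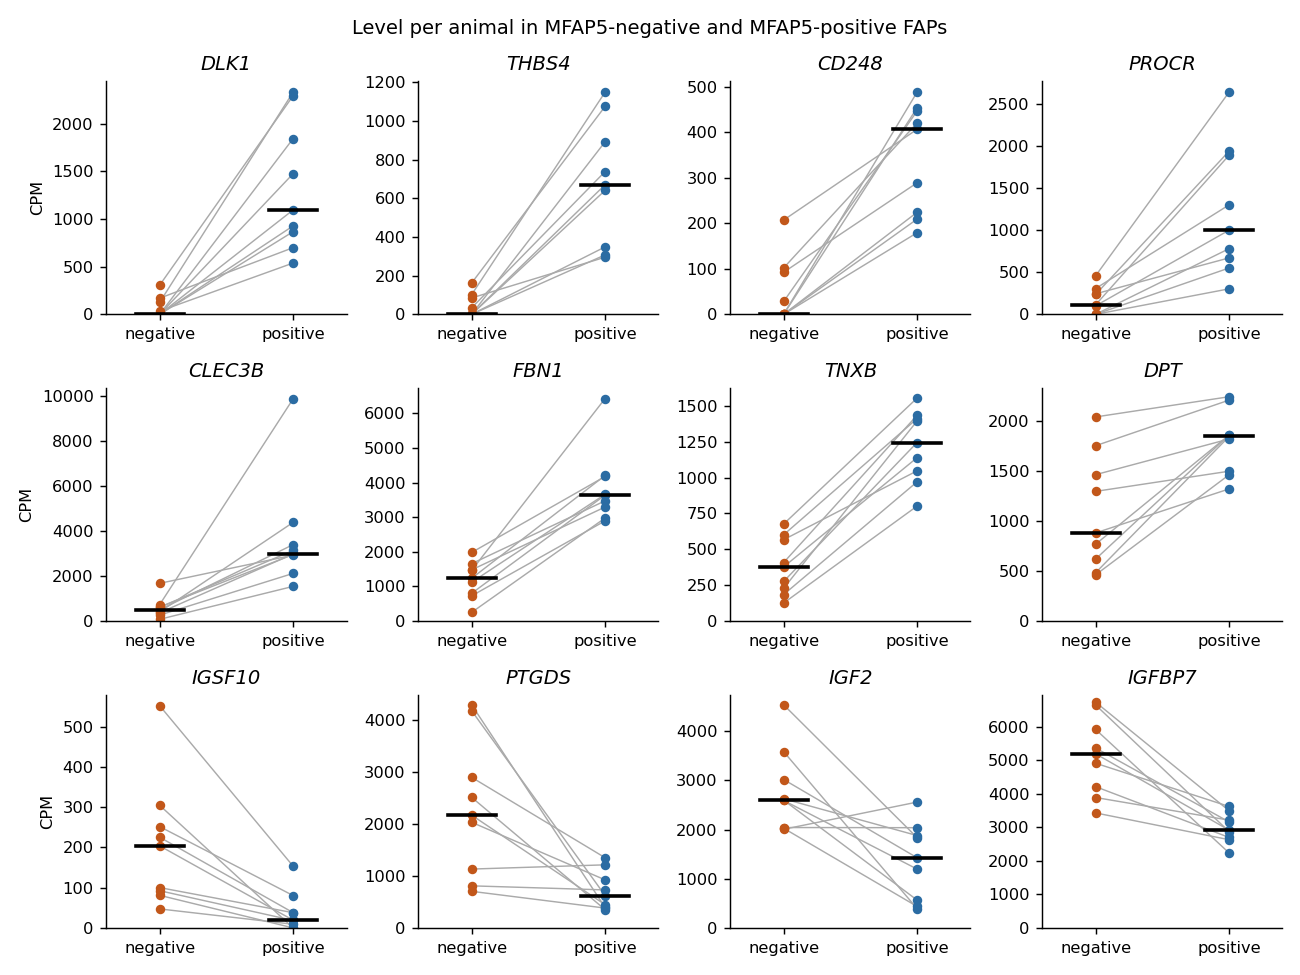
Level in CPM of 12 genes in MFAP5-negative (orange) and MFAP5-positive (blue) FAPs; each grey line is an animal (n = 9) and black bars are medians. DLK1, THBS4, FBN1 and TNXB do not overlap between the classes, while IGF2 and PTGDS are lower in positive cells in 8 of 9 animals and overlap.

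Genes of adventitial fibroblasts were among those higher in MFAP5-positive cells. All 30 genes on that list were in the matrix, 19 had enough UMIs to test, 13 were higher in positive cells, none was lower and 6 did not pass, against 3.65% higher and 1.03% lower among all genes tested. Of the 13, CD248 is a description, since it was testable through its positive sums. The shares of all genes also stand behind the counts of the lists that follow, several of which rest on 1 or 2 genes. The count was 6 of 18 in adults alone, 10 of 23 in calves alone and 8 of 19 with at least 5 cells per class and animal, with none lower. The median log2FC of the 19 was 1.65. The list was chosen with earlier results of these data known. CLEC3B (tetranectin, a secreted plasminogen-binding lectin) ranged from 81.0 to 1677 CPM in negative cells with a median of 504. In positive cells CLEC3B ranged from 1542 to 9866 CPM with a median of 2980 (log2FC 2.69, SE 0.25, adjusted p = 1.24e-11). The overlap came from animal 1 on the negative side and a single low animal on the positive side. TPPP3 (log2FC 1.99), CD55 (1.87), PCOLCE2 (1.71), PI16 (1.47) and IGFBP6 (1.11) were higher as well, with PI16 higher in 7 of 9 animals. Of the 24 genes on the list of parenchymal fibroblasts 14 were tested and none passed in edgeR or DESeq2 (1 at an unadjusted p below 0.05 in edgeR), and their median log2FC was 0.21. Other selections of cells did call members, with 1 higher and 2 lower of 15 when classes were set after thinning, 3 lower of 18 in that split with at least 10 cells per class and 2 higher of 14 in adults alone. With no filter on low counts 10 of 23 were called higher and none lower, in a fit that called 851 of 14805 genes higher and 62 lower. That fit shifted the log2FC of the 2138 genes of the main fit by a median of 0.73. The members of the parenchymal list with the largest differences in the main fit were APOD at -1.07 (SE 0.86), MME at 0.74 (SE 0.59), CXCL14 at -0.72 (SE 0.92) and LPL at -0.65 (SE 0.42).

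Elastic fiber and microfibril genes were mixed. Of 16 tested, 4 were higher, 1 was lower and 11 did not pass, with a median log2FC of 0.66. FBN1, the fibrillin that forms the microfibril to which MFAP5 binds, lay between 252 and 1982 CPM with a median of 1236 in negative cells. In positive cells FBN1 lay between 2894 and 6425 CPM with a median of 3638, and the classes did not overlap (log2FC 1.74, SE 0.20, adjusted p = 8.66e-10). LOXL1, which cross-links elastin, was higher (log2FC 2.14, SE 0.38, adjusted p = 5.44e-05), as were the elastic fiber components FBLN2 at 1.08 and MFAP2 at 0.93. FBLN1 (fibulin 1) was lower at -0.74 (SE 0.23, adjusted p = 0.0448), from a median of 1704 to one of 1149 CPM. ADAMTSL4 at 1.45 (SE 0.53) and LOXL2 at 1.30 (SE 0.42) did not pass.

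Fibrillar and interstitial collagens had 2 of 10 tested genes higher and none lower, with a median log2FC of 0.77. These were COL3A1 (1.05, SE 0.18, adjusted p = 0.000328; medians 5038 and 12732 CPM) and COL5A1 (0.99, SE 0.27, adjusted p = 0.0137). COL6A3 (0.95, SE 0.40) and COL14A1 (0.87, SE 0.34) did not pass. The count was 0 of 10 when cells were thinned before the split and without the replicate block, and 5 of 10 in cells of 4000 or more UMIs and in adults alone. Of 12 basement membrane genes LAMC1, a laminin chain, was the one that passed (0.95, adjusted p = 0.0243). That call was lost in DESeq2 (adjusted p = 0.0757), without the replicate block (0.494) and in calves alone (0.66), while 3 of 12 were called in adults alone. NID2 (0.78), COL4A1 (0.61) and HSPG2 (0.59) did not pass. Of 9 small leucine-rich proteoglycans ASPN (asporin) passed at 2.36 (SE 0.54, adjusted p = 0.0121), while DCN (0.60, adjusted p = 0.0761), PRELP (0.61) and ECM2 (0.36) did not. Among 10 matrix proteases and inhibitors the urokinase gene PLAU (1.99), the procollagen proteinase enhancer PCOLCE2 (1.71) and the metalloproteinase inhibitor TIMP2 (1.19) were higher. Of 12 hyaluronan and matricellular genes 5 were higher, THBS4 (a description, as given above), TNFAIP6 (1.78), TNXB (1.65), CCN2 (1.54) and SPARC (0.84). TNXB, tenascin X, which ties collagen fibrils together, ranged from 126 to 677 CPM in negative and from 802 to 1554 CPM in positive cells. CCN3 had a log2FC of 2.26 (SE 0.60) and was higher in 9 of 9 animals, but did not pass (adjusted p = 0.0818).

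Signaling lists had few members past the test. Among the IGF axis genes 8 were tested. IGFBP6, the binding protein with a preference for IGF2, was higher (log2FC 1.11, SE 0.18, adjusted p = 3.78e-05), while IGF2 (-1.23, SE 0.32, adjusted p = 0.0413) and IGFBP7 (-0.78, SE 0.16, adjusted p = 0.000814) were lower, and IGFBP5 (-1.05, SE 0.91) and IGFBP3 (-0.92, SE 0.55) did not pass. IGF2 medians were 2597 CPM in negative and 1426 CPM in positive cells, with 8 of 9 animals lower. Of 7 TGF-beta and BMP genes TGFBR3 (1.21), a co-receptor, and FSTL1 (1.14) were higher, and FST (-1.24, SE 0.65) and BMP4 (0.68, SE 0.39) did not pass. Of 4 Wnt genes SFRP4, a secreted Wnt inhibitor, was higher (2.03, SE 0.42, adjusted p = 0.00274), a call lost when classes were set after thinning (1.64, adjusted p = 0.0917), also with at least 10 cells per class (1.91, adjusted p = 0.361), and in adults alone (1.59, adjusted p = 0.0698). Of the others, SFRP1 at -1.40 (SE 0.57), WNT2B at -0.39 and WNT11 at -0.36 did not pass. Of 9 complement genes CD55, which dismantles complement convertases, was higher and C4A, a complement component, was lower (-1.27, SE 0.34, adjusted p = 0.011), while CFD (-0.77, SE 0.61) and C7 (-0.60, SE 0.31) did not pass. Of 6 chemokines and cytokines CSF1 alone was called, on few negative UMIs and through its level in positive cells, so this is a description. With classes set after thinning none of 6 was higher and 2 were lower, CXCL14 and CCL26, and with at least 10 cells per class CCL26 alone was lower. CCL19, a chemokine that draws lymphocytes and dendritic cells, had a log2FC of -4.08 (SE 1.04) and was lower in 6 of 9 animals, with 2 animals at 0 in negative cells, and did not pass (adjusted p = 0.0715). CCL2 at 1.01 (SE 0.94) did not pass either. Of 7 adipogenic and lipid genes DLK1 alone was called, through its level in positive cells, and APOD, LPL and ALDH1A1 (-0.53, SE 0.32) did not pass. With classes set after thinning DLK1 was higher and LPL and ALDH1A1 were lower, with at least 10 cells per class none of 12 was higher and LPL, ALDH1A1 and APOE were lower, and in adults alone APOE was lower. None of 20 tested genes that respond to tissue dissociation passed in edgeR or DESeq2 (2 at an unadjusted p below 0.05 in edgeR), and their median log2FC was -0.15. Other fits called NR4A1 lower (thinned before the split) and KLF6 higher (classes set after thinning, at least 10 cells per class). With no filter on low counts 4 of 28 were higher, as were 851 of 14805 genes in that fit. The largest differences among the 20 were ATF3 at -0.73 (SE 0.45), HSPA1A at -0.68 (SE 0.29), JUND at -0.57 (SE 0.24) and KLF6 at 0.53 (SE 0.31).

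The called genes that were lower in MFAP5-positive cells in every animal were IGSF10, GGT5, USP1 and IGFBP7. IGFBP7, a secreted protein that binds IGF and insulin, ranged from 3430 to 6733 CPM with a median of 5193 in negative cells and from 2237 to 3622 CPM with a median of 2916 in positive cells. GGT5, which cleaves glutathione conjugates and leukotriene C4, fell from a median of 229 to 74.3 CPM (log2FC -1.60, SE 0.36, adjusted p = 0.0017). IGSF10, an immunoglobulin superfamily protein, fell from 204 to 19.2 CPM (-2.43, SE 0.44, adjusted p = 8.99e-05). It was testable mainly through its level in negative cells, so its difference is a description. The deubiquitinase USP1 was between 134 and 306 CPM in negative and between 72.7 and 130.1 CPM in positive cells, the single gene in this direction without overlap (0.0468%). Its adjusted p was 0.0426 and lay between 0.0588 and 0.167 without animal 1, 2, 3, 4, 5, 6, 7 or 10. Chosen after their values were seen were PTGDS, the synthase of prostaglandin D2 (-1.69, SE 0.36, adjusted p = 0.00977), the hedgehog receptor PTCH1 (-1.98, SE 0.36, adjusted p = 0.000104) and the nuclear receptor NR2F2 (-1.73, SE 0.38, adjusted p = 0.00165). PTGDS ranged from 705 to 4296 CPM in negative and from 352 to 1352 CPM in positive cells and was lower in 8 of 9 animals.

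Of 46 named genes past the test, IL18, PTGS1, RET, FNDC1 and CSF1 had fewer than 5 UMIs in the negative sums and were tested through their level in positive cells, so their fits without 1 animal are not given. Of the other 41 genes 33 stayed past the test in every fit without 1 animal that could test them, which was all 9 fits for 29 genes and 8 of 9 for PGF, IGSF10, TPPP3 and PTCH1. The fitted fold change moved by over 1.5 times in 6 of the 41, each time upward. Without animal 5 the log2FC was 4.87 for DLK1 and 4.47 for THBS4, and it was 2.71 for PLAU without animal 4, 4.01 for CD248 without animal 2, 3.03 for ASPN without animal 10 and 2.51 for CD55 without animal 8. DLK1, THBS4, CD248 and PGF were testable through their positive sums and IGSF10 mainly through its negative sums. Their calls and values here are therefore descriptions. Apart from USP1, calls were lost by FBLN1 (adjusted p = 0.342, 0.161, 0.2 and 0.212 without animals 1, 2, 6 and 7), MFAP2 (0.0549, 0.0779, 0.0588, 0.0528 and 0.0987 without animals 1, 2, 5, 7 and 8) and IGF2 (0.0682, 0.117 and 0.204 without animals 6, 8 and 10). LAMC1 (0.0734, 0.0541 and 0.108 without animals 7, 8 and 10), C4A (0.0715 and 0.132 without animals 1 and 6), GSN (0.0651 without animal 10) and SERPINF1 (0.0737 without animal 8) were the others.

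Levels were then followed over all 1190 FAPs after every cell had been thinned at random to 2000 UMIs and sorted by the MFAP5 UMIs left, 0 (111 cells), 1 (99), 2 to 3 (164), 4 to 7 (297) and 8 or more (519). These pooled levels are a description, with no test. DLK1 stood at 180.2, 469.9, 452, 922 and 1194 CPM along these 5 classes, with its largest relative step between 0 and 1 UMI. CLEC3B moved differently, at 608, 929.8, 968, 1345 and 5467 CPM, with its main step at the top class. PROCR, PI16 and PCOLCE2 shared that late step, from 304, 287 and 741 CPM at 4 to 7 UMIs to 1455, 823 and 1809 CPM at 8 or more. PTGDS ran the other way, at 2198, 1703, 839, 309 and 122 CPM. As a mean over animals PTGDS stood at 2104 CPM at 0 and 2265 CPM at 1 UMI, so the first step down was one of the pooled cells. CCL19 went from 495 CPM, or 110 UMIs, in cells without MFAP5 to 1 UMI in the 519 cells of the top class. Animal 5, the highest in CLEC3B, gave 182 of the 519 cells of the top class. Without it CLEC3B stood at 1225 CPM at 4 to 7 UMIs and at 3294 CPM at 8 or more, PROCR at 343 and 1210 CPM and PCOLCE2 at 631 and 1098 CPM. The summed adventitial list went from 8586 to 26355 CPM, of which 13385 CPM was reached at 4 to 7 UMIs, and the summed parenchymal list was 16081, 15098, 16786, 15862 and 11493 CPM. PDGFRA moved little, at 1005, 899, 867, 903 and 788 CPM.

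**Figure D4:**
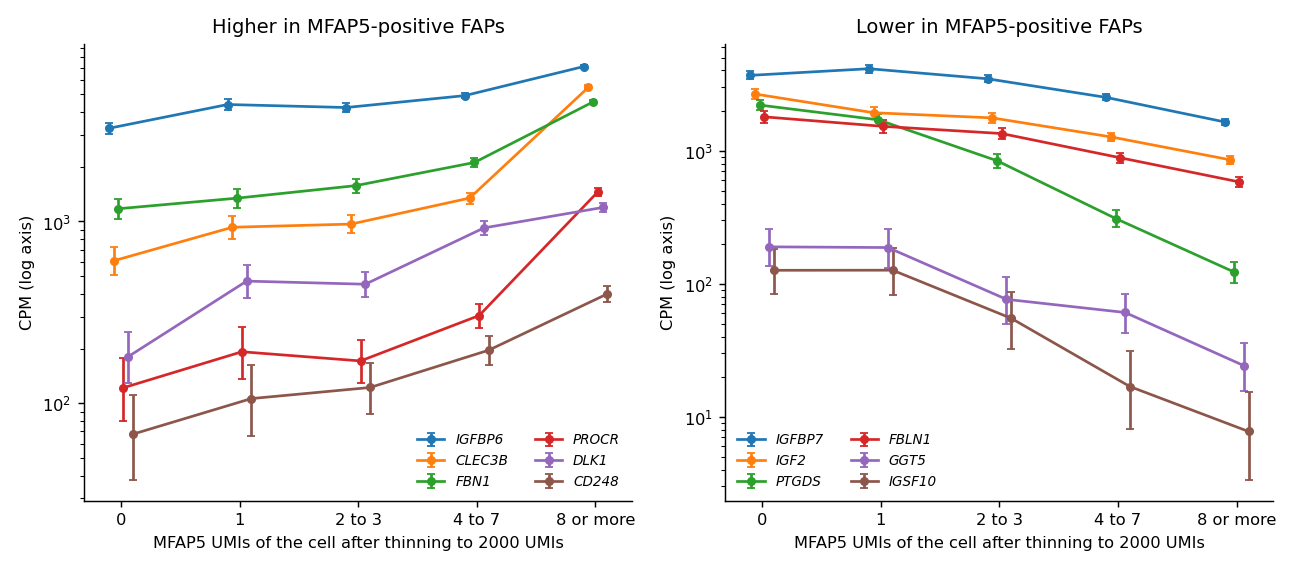
Pooled level in CPM (log axis) of 6 genes higher (left) and 6 genes lower (right) in MFAP5-positive FAPs, in cells thinned to 2000 UMIs and sorted by their remaining MFAP5 UMIs. Error bars are exact 95% Poisson intervals (counting error only); PTGDS goes from 2198 to 122 CPM and CLEC3B from 608 to 5467 CPM.

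Because positive cells were deeper, the comparison was repeated with depth held in several ways, and every called gene that could still be tested kept its sign. These fits reuse cells in which the genes were called, so the kept signs are a description. With each cell thinned to 2000 UMIs and the classes left as they were, 50 of the 78 higher genes remained testable, all 50 were higher and 22 passed. Among the lower genes 8 were testable, 8 were lower and 4 passed. With classes drawn from the thinned MFAP5 UMIs and counts thinned too, 45 of 62 testable higher genes and 6 of 8 testable lower genes passed. Pairing each negative cell with the positive cell nearest in depth (44 pairs, median 3776.5 against 3763 UMIs) left 229 genes to test, of which 22 were higher and 2 lower. From the original calls, 15 of 22 testable higher genes and 1 of 3 testable lower genes passed, and all had their sign. FBN1 passed (log2FC 1.35, adjusted p = 0.0082), as did IGFBP7 (-0.93, adjusted p = 0.039), whereas IGFBP6 did not (0.59, adjusted p = 0.12). Thinning the larger sum of each animal to the smaller one left 226 genes, of which 14 were higher and 3 lower. CLEC3B (2.56), FBN1 (1.53), PTGDS (-1.81) and IGF2 (-1.37) were among those that passed.

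The added split by thinned MFAP5 UMIs with all counts kept had 111 negative and 980 positive cells from all 10 animals. It called 114 of 2777 genes higher and 63 lower, and 63 of the 78 higher and 17 of 21 testable lower genes passed again. The median log2FC of the 78 higher genes was 1.18 in that split against 1.62, with DLK1 at 2.81, CD248 at 2.30, RET at 1.54 and TPPP3 at 0.90. That of the lower genes was not smaller, at -1.60, with PTGDS at -3.01 and GGT5 at -1.97. Thinning did not make these classes equal in depth, since the median negative cell held 4800 ± 987 and the median positive cell 6022 ± 777 UMIs (SD, n = 10), deeper in 10 of 10 animals (exact sign-flip test, p = 0.00195, the smallest this design allows). With at least 10 cells of both classes, 4 animals were left, and 49 of 78 higher and 17 of 22 lower genes passed. DLK1 (1.79, adjusted p = 0.17), PROCR (2.66, adjusted p = 0.14) and CD248 (2.66, adjusted p = 0.23) no longer did, while CLEC3B, FBN1 and PTGDS did.

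**Figure D5:**
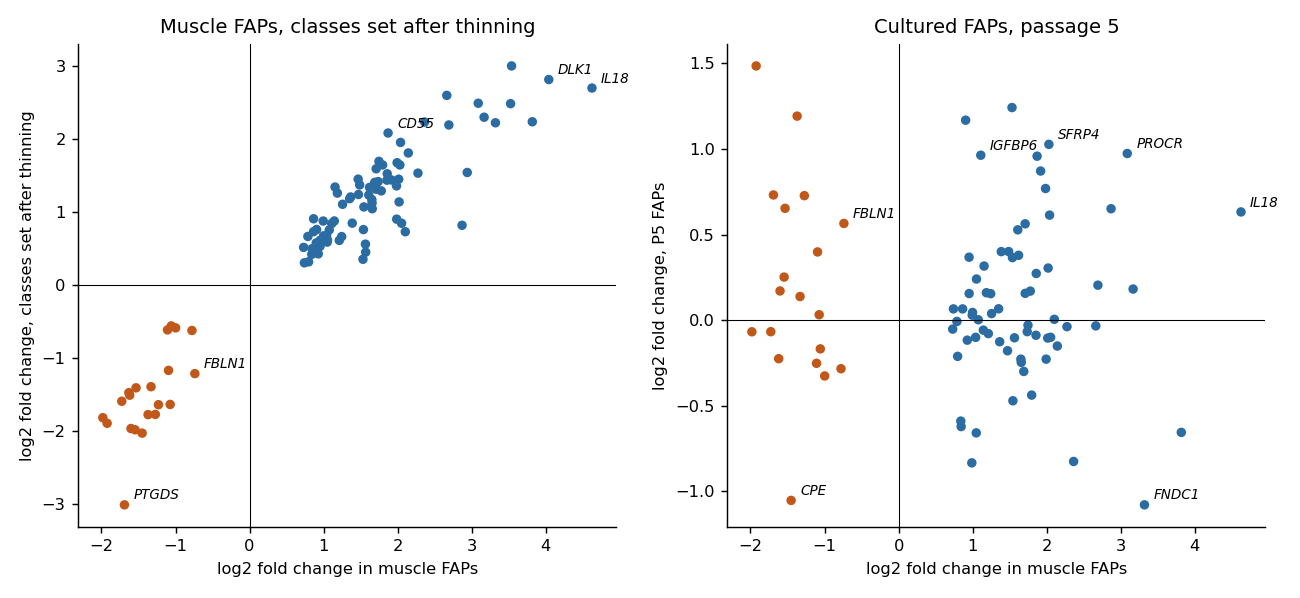
Log2FC of the genes called in muscle FAPs (x axis; blue higher, orange lower in positive cells) against their log2FC when classes are set after thinning (left) and in cultured FAPs of passage 5 (right). On the left every tested gene keeps its sign; on the right 37 of 68 higher genes and 8 of 19 lower genes do.

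In 5 calves alone all 78 higher and 22 lower genes kept their sign, and 46 and 7 passed. In 4 adults alone all 75 and 18 testable genes kept it, and 28 and 6 passed. Negative cells numbered 29 in calves and 16 in adults. A test of the difference itself, as an interaction of class and age, called 7 of 2138 genes (0.327%). For IGF2 the split was stronger in adults. It had medians of 2593 CPM in negative and 501 CPM in positive cells of adults, against 2624 and 1877 CPM in calves (log2 difference -1.67, adjusted p = 0.0206). The collagen chains COL5A3 and COL6A1 had the opposite sign, with adult negative cells at medians of 40.5 CPM (0 to 94.4) and 240 CPM (0 to 381). The same interaction in DESeq2 called 0 genes, with 88 at an unadjusted p below 0.05, against 128 in edgeR, and gave IGF2 an adjusted p of 0.322.

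FAPs of the same animals were also sequenced in culture. Cells were unsorted at P0. From passage 2 on they were grown in serum-free growth medium as unsorted cultures (animals 1, 2 and 9), FAP-sorted cultures (4, 7 and 8) or satellite cell-sorted cultures (5, 6 and 10), and animal 3 was sequenced from muscle alone. In cells thinned to 2000 UMIs, the share with 2 or more MFAP5 UMIs was 82.6% ± 7.5 of FAPs in muscle (SD, n = 10 animals), 0.227% ± 0.21 after 72 h of culture (P0, n = 9), 8.66% ± 11.1 at passage 2, 13.7% ± 10.5 at passage 5 and 15.5% ± 9.5 at passage 8. The deposited cells of each timepoint bore a single injection name, so timepoint and library cannot be told apart. The sample titles also list a run 2 for P0, P2 and P5, and counts were taken from the samples titled run 1. At P0 the thinned classes held 13 positive cells of 7 animals, called 11 genes higher (0.116%) and 14 lower (0.147%), and are not read further. With raw MFAP5 UMIs as in muscle (508 positive and 4209 negative cells of 9 animals, without control of depth), 303 of 10143 genes were higher (2.99%) and 103 lower (1.02%). Of the genes higher in muscle 37 of 70 testable were higher there and none lower. CLEC3B (0.61), CD248 (0.29), FBN1 (0.25) and IGFBP6 (0.45) were among them, with smaller log2FC than in muscle. Of the genes lower in muscle 1 of 20 was lower again and 1 was higher. Complement genes were higher in 5 of 10 and CFD was lower (-1.45, adjusted p = 0.000447), 2 of 12 collagens were higher (COL3A1 and COL1A2), and 2 of 17 parenchymal genes were lower (COL15A1 and CXCL14). In the same fit 4 of 8 vascular endothelial markers (EGFL7, CLDN5, CDH5 and PECAM1, with a list median of -0.72) and the satellite cell marker MYF5 (-1.21) were lower, and of 8 FAP markers 4 were higher (COL3A1, DCN, COL1A2 and SERPINF1) and PDGFRA was lower. The part of other cells in the P0 results was not tested.

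At passages 2, 5 and 8, with classes set after thinning, 4.85, 8.22 and 5.16% of all genes were higher in positive FAPs and 4.95, 7.13 and 2.32% lower. These fits held 6, 8 and 9 animals, so the animals and cultures differed between passages. Positive cells numbered 615, 802 and 392, with as few as 19, 7 and 11 in an animal. Of the genes higher in muscle, 21 of 69, 19 of 68 and 21 of 60 were higher again, and 3, 5 and 2 were lower. Of the genes lower in muscle, 2 of 19, 1 of 19 and 2 of 15 were lower again, and 4, 6 and 2 were higher. Of 75 genes called in muscle in either direction and tested at all 3 passages, 12 were higher in muscle and at each passage, which included PROCR, SFRP4, CD55, PCOLCE2, IGFBP6 and GSN. The share of all genes that were higher at all 3 passages was not computed, so this count has no background. IL18 and CSF1 were also among the 12, but rested in muscle on 1 and 4 negative UMIs, which leaves 10. At P0, PROCR (adjusted p = 0.143), CD55 (0.69) and GSN (0.338) did not pass. IGFBP6 had log2FC of 0.58, 0.96 and 0.88 at the 3 passages and PROCR of 0.86, 0.97 and 0.82. CPE, which trims peptide hormones, was lower in muscle and at each passage. FNDC1 was lower at these passages, at -1.16, -1.08 and -1.10, and FBLN1 was higher, at 0.50, 0.57 and 0.58. Complement genes, of which 1 of 9 was higher in muscle, were higher in 11 of 11 tested genes at passages 2 and 5 and in 10 of 10 at passage 8, with CFD at 1.45, 1.69 and 1.17. Adventitial genes were higher in 8 of 21, 7 of 22 and 7 of 17 tested genes and lower in 0, 4 and 0. Chemokines and cytokines were higher in 8 of 15, 10 of 15 and 8 of 13 and lower in none. Elastic fiber and microfibril genes were higher in 8 of 22, 8 of 22 and 7 of 18 and lower in 1, 5 and 0. Parenchymal genes were higher in 5 of 12, 2 of 13 and 3 of 9 and lower in none. Collagens were lower in 2 of 13, 8 of 13 and 4 of 12 tested genes and higher in none. Whether muscle and culture differ in these genes was not tested. Positive and negative cells of these passages had median depths of 22433 and 31410, 23759 and 21792, and 15037 and 19907 UMIs.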

How the data were processed

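Single-cell RNA-seq libraries (10x Genomics) held raw UMI counts per gene, which the authors made with Cell Ranger 6.0.1 on ARS-UCD1.2 and deposited with a table of cell types, animals assigned from genotypes, and the percent of mitochondrial UMIs that passed the authors' quality control. Animals were assigned by demuxlet, and no further doublet caller was run. From the deposited counts, cells of each animal and MFAP5 class were summed, MFAP5 was removed, and edgeR 4.0.16 (R 4.3.3, TMM, filterByExpr, quasi-likelihood test, Benjamini-Hochberg adjustment over all genes tested) compared classes with the animal as a term, since both sums came from the same animal. A minimum of 10 cells per class had been intended but was met by 1 animal, so all 9 animals with both classes were used. Marker sums were compared as linear CPM, a scale chosen after the data were seen, in place of log2. DESeq2 1.42.0 was an alternative. Exact tests were 2-sided and run in scipy 1.17.1. The scripts were tested on simulated data. Named genes were the 12 largest changes in each direction that held in every animal, with up to 4 of the largest per list and the FAP markers. PTGDS, PTCH1, NR2F2, FBLN1, FBLN2, MFAP2, CCN2, SPARC, PI16 and CPE fell outside this rule and were chosen after their values were seen. Members and gene lists were chosen with earlier results of these data known. The cells of 1 pooled library are the source of both classes, and the 9 animals are the replicates. Symbols stood beside 16828 of 21880 gene identifiers.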

Additional observations from a re-analysis of the deposited data

Results flagged for a closer look

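In 9 of 42 groups of animals tested, 1 animal lay apart from the others by Dixon's criterion, which chance meets in about 1 group of 20 for continuous values. The levels in negative cells rest on few UMIs, a single one for IL18, so that rate does not hold for them. Animal 1 had the lowest share of MFAP5-positive FAPs among adults, 89.3% against 92.9% in the next adult. Animal 10 had the highest mitochondrial share in its negative cells, 6.89% against 4.16% in the next animal. In negative cells, IL18 was at 102 CPM in animal 7 and at 0 in the others, CD248 was at 207 CPM in animal 2 (next 102), CSF1 at 84.6 CPM in animal 5 (next 33.4), PGF at 167 CPM in animal 4 (next 76.2) and CLEC3B at 1677 CPM in animal 1 (next 733). In positive cells, CLEC3B was at 9866 CPM in animal 5 (next 4383) and GGT5 at 224 CPM in animal 4 (next 97.0).

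The difference between MFAP5 classes itself differed between adults and calves in 7 genes by the edgeR interaction, given as adult minus calf on the log2 scale. COL5A3 stood at 3.90 (adjusted p = 0.00251), PXDN at 4.29 (adjusted p = 0.0424) and COL6A1 at 2.23 (adjusted p = 0.0424). IGF2 stood at -1.67 and FST at -2.75 (both adjusted p = 0.0206) and CRIP1 at -2.49 (adjusted p = 0.0424). LTBP1 had a fitted difference of 9.45 (adjusted p = 0.0206), which depends on the prior count because the negative cells of all adults were at 0. PXDN lay between 0 and 76.2 CPM with a median of 0 in the negative cells of adults and COL5A3 between 0 and 94.4 CPM with a median of 40.5, so their fitted differences rest on few UMIs and on the prior count. DESeq2 called none of these 7 genes.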

How the results depend on the processing

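Counts of genes higher and lower were 78 and 22. They were 66 and 29 in DESeq2, 58 and 11 without the animal as a replicate block, 851 and 62 with no filter on low counts (which shifted the log2FC of the same 2138 genes by a median of 0.73), 23 and 4 in cells thinned to 2000 UMIs, 56 and 17 when thinned before the split, 22 and 2 with depth-matched cells, 71 and 14 in cells of 4000 or more UMIs, 25 and 3 without cells carrying other lineages' UMIs, and 49 and 11 in adults alone (61 and 17 in calves). Settings chosen after seeing the data gave 33 and 13 with at least 5 cells, 114 and 63 when split after thinning, 92 and 59 in that split with at least 10 cells, 34 and 16 with up to 5 matched cells and 14 and 3 at equal depth. Without each animal in turn they were 70 to 112 and 15 to 26. Without animal 1 the mitochondrial difference was -1.01 percentage points (exact p = 0.0469), and over all animals left out it ran from -1.01 to -0.34. Differences in median UMIs ran from 1590 to 2186, in genes from 400 to 531, and in the share of positive cells from -4.19 to -0.96 percentage points. The interaction called 4 and 3 genes, and 0 and 0 in DESeq2. At P0 the thinned classes gave 11 and 14 genes, 2 and 0 in DESeq2, 303 and 103 with raw classes and 5 and 493 with thinned genes. The FBLN1 log2FC was 0.014 with no filter on low counts, against -0.74. Of 1097 values of the 46 called named genes under all settings, 1096 kept their sign and 900 passed. The settings refit largely the same cells for genes called in them, so this count is no independent check. It includes IL18, PTGS1, RET, FNDC1 and CSF1, which rested on few negative UMIs. At least 30 cells per class was not run, since 0 animals met it. With all 45 negative cells 2138 genes could be tested, against 229 with depth-matched cells and 3462 in calves alone.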
